A study of Mus musculus with 18 samples.

Results

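Whether the P300/CBP inhibitor A-241 and interferon gamma (IFNγ) act on transcript levels independently of each other was examined gene by gene, with the interaction of both treatments as the measure. The interaction is the log2 response to IFNγ in cells with A-241 (A-241 + IFNγ against A-241) minus the log2 response in cells without it (IFNγ against DMSO). A value of 0 means that the log2 changes add, so that the fold changes multiply, a negative value means that cells given both treatments held less transcript than this, and a positive value that they held more. All 11964 genes with enough counts to be tested were taken, of 43629 genes in the table, whether or not IFNγ changed them. The contrast uses 12 of the 18 libraries.

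AT3 is a mouse mammary carcinoma cell line, and transcripts were counted by 3′ mRNA sequencing (QuantSeq). All cells were pre-treated for 1 h and then cultured for an additional 2 h. DMSO cells received the vehicles alone, A-241 cells received A-241 at 250 nM throughout the 3 h, IFNγ cells received DMSO and then recombinant murine IFNγ at 1 ng/mL, and A-241 + IFNγ cells received both. Each group had 3 libraries. The remaining 6 libraries, of cells given A-485 at 1000 nM with or without IFNγ, entered the estimate of the spread. The study's methods call the replicates technical and the sample labels call them biological, so that the p-values measure the spread between libraries, which may not be independent cultures. In bulk RNA, a change of level in each cell and a change in the share of cells that express a gene cannot be told apart.

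P300 and CBP are paralogous lysine acetyltransferases that act as co-activators at enhancers and promoters, and A-241 and A-485 are inhibitors of their catalytic activity. IFNγ binds a receptor coupled to the kinases JAK1 and JAK2, whose signal reaches GAS elements in DNA and induces a first set of genes that includes the transcription factor IRF1, which in turn binds interferon-stimulated response elements (ISRE) in genes of antiviral and cell-autonomous defence and of antigen presentation.

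Each library held between 3417167 and 7856830 counts, and the common biological coefficient of variation was 0.263. DMSO replicate 3 and IFNγ replicate 2 stood apart from the libraries of their own groups. The non-coding gene Gm42418 took 20.1% and 23.05% of their counts, against 7.11% to 16.2% in the other 16 libraries. Of the epithelial marker list, 6 of 8 genes were expressed, with a summed level from 647 to 1229 CPM (counts scaled to the same total in each library) over the 12 libraries, and Krt19 and Cldn4 were at or near 0. The mesenchymal and fibroblast list summed to between 515 and 896 CPM, mostly from Fn1, Vim, Acta2 and Cdh2, with Col1a1, Col1a2 and Pdgfrb near 0. The immune list summed to between 2.00 and 30.6 CPM, with Adgre1, Cd4, Ncr1 and Itgax at 0, and the endothelial list to between 0.668 and 4.11 CPM, with Cdh5 and Tek at 0.

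At the threshold used here (adjusted p under 0.05, edgeR's quasi-likelihood test with Benjamini-Hochberg adjustment over all genes tested), the interaction was called lower for 11 genes (0.0919% of genes tested) and higher for 1 gene (0.00836%). Of the genes called lower, 10 are given here, namely Tgtp1, Igtp, Iigp1, Gbp3, Ifi203, Irgm1, Oasl2, Gbp7, Mtfr2 and Samhd1, and the gene called higher was Ccnd1. All of these but Mtfr2 and Ccnd1 are known interferon-inducible genes. Without adjustment, 231 genes (1.93%) had p under 0.05 with a negative and 171 (1.43%) with a positive interaction. This balance turned with the scaling, to 182 lower and 242 higher with total counts and 206 and 211 with upper-quartile factors, and to 433 and 634 without the libraries rich in Gm42418. The median over all genes was -0.02, with quartiles of -0.25 and 0.19, and 52.7% of genes lay below 0. With total counts the median was 0.02 and the share 47.6%, with upper-quartile factors 0.01 and 48.5%, and without both libraries 0.01 and 48.3%, so that no direction is given for the genes as a whole. The interaction lay within 0.5 of 0 for 9686 genes (81.0%). Of the 552 genes with an estimate beyond 1, 327 were lower and 225 higher.

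A gene that is not called is not thereby additive. Additivity was therefore read from the 95% interval of the interaction, and a gene was counted as within 2-fold of additivity if the whole interval lay between -1 and 1. This held for 4560 genes (38.1%). The remaining 7392 genes that were not called had intervals that reached beyond 2-fold, or no interval in 12 cases, and for them the libraries do not settle whether the treatments add. The share rose with depth, from 0 of 726 genes with a mean under 10 counts to 35.0% with 30 to 100 counts. From 100 counts on it changed little, with 58.9% at 100 to 300 counts, 61.9% at 300 to 1000 and 59.0% above. Many genes with deep counts were thus not settled either. In 105 genes at least 1 of the 4 groups had 3 counts or fewer in every library, and their fitted interaction is not a reliable size.

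**Figure D1:**
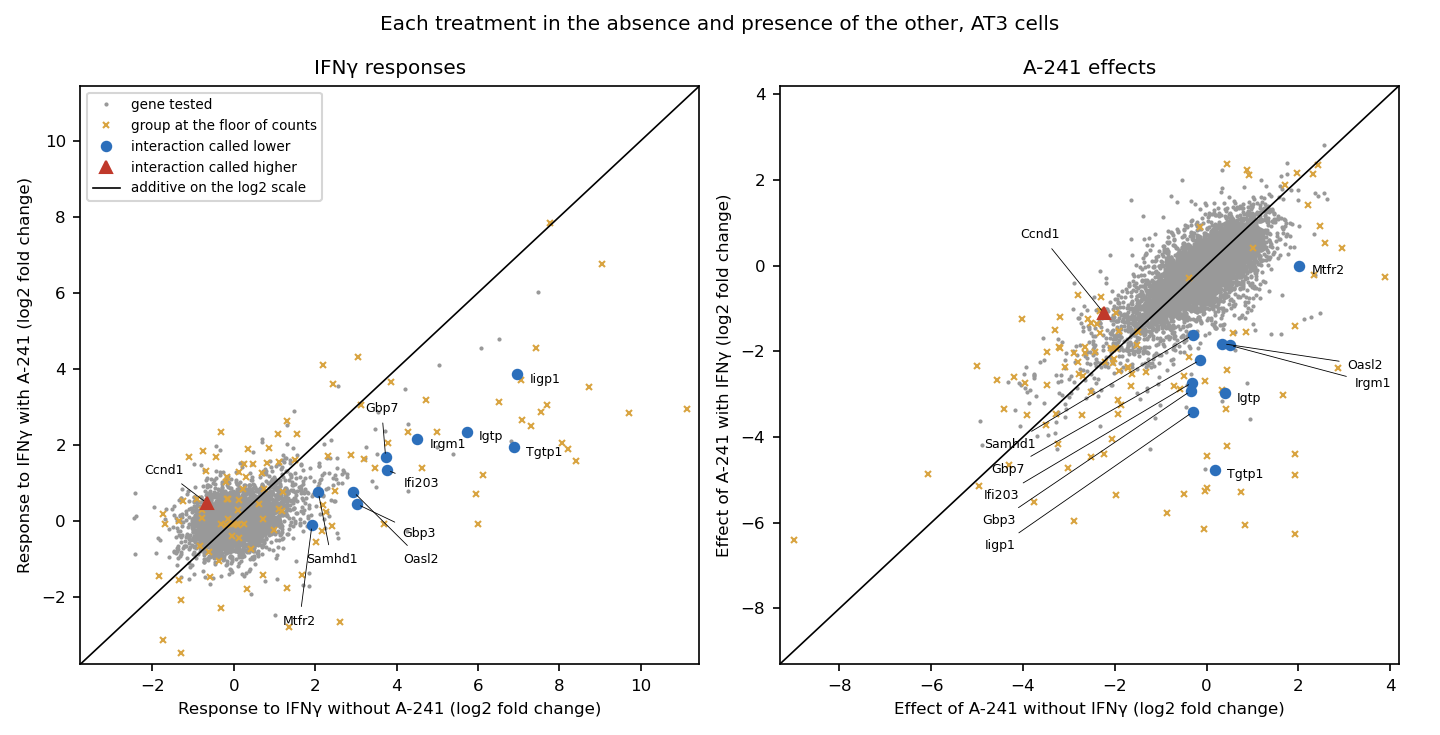
Log2 response of each of 11964 genes to IFNγ without (x axis) and with A-241 (y axis), left, and log2 effect of A-241 without (x axis) and with IFNγ (y axis), right, with the line on which the treatments add. Genes with a called interaction are named, 1 of them left out, and crosses are genes with a group at or under 3 counts in every library. The 10 genes called lower that are shown lie below the line in both panels, with IFNγ responses between 1.92 and 6.97 without A-241.

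In the plot of both responses, the departure of a gene from the line is its interaction, which is the same in both panels. The A-241 effects without and with IFNγ had a correlation of 0.72 across genes, and the IFNγ responses without and with A-241 one of 0.53. Since the departures are the same, these correlations depend on how widely each effect spreads over genes. They do not show that the effect of either treatment was kept better than that of the other. The libraries of each pair of effects do not overlap, but genes are not independent replicates and both values are descriptions. IFNγ raised 176 genes without A-241 (1.47%) and 39 with it (0.326%), and lowered 28 (0.234%) and 3 (0.0251%). A-241 lowered 742 genes without IFNγ (6.2%) and 690 with it (5.77%), and raised 343 (2.87%) and 228 (1.91%). A difference between such counts was not itself tested, and the tests of the difference are the interactions given here.

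The immunity-related GTPases, which attack the vacuoles of intracellular pathogens, held 4 of the 11 genes called lower. Igtp (chr11:58199556-58207591, GRCm38, plus strand) had the smallest adjusted p of all genes. Its level was 2.44, 2.26 and 2.72 log2 CPM in DMSO, 2.60, 3.03 and 2.83 in A-241, 7.96, 8.18 and 8.11 in IFNγ, and 5.19, 4.95 and 5.19 in A-241 + IFNγ. The DMSO and A-241 libraries overlapped, and all A-241 + IFNγ libraries lay between them and the IFNγ libraries. The response to IFNγ was 5.72 without and 2.34 with A-241, and the interaction was -3.38 (SE 0.28, 95% interval -3.98 to -2.78, edgeR adjusted p = 3.22e-05). Had the log2 changes added, the level with both would have been 8.43 log2 CPM, against a mean of 5.11. Igtp shares exon bases with Irgm2, and reads on both were counted for each.

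Tgtp1, a T-cell-specific GTPase of the same family, had the most negative interaction among the genes called. Its libraries held 3, 7 and 2 counts in DMSO, 4, 4 and 6 in A-241, 1053, 143 and 780 in IFNγ, and 23, 27 and 9 in A-241 + IFNγ. IFNγ replicate 2 was thus far below the other IFNγ libraries, but above every library of the other groups. The interaction was -4.95 (SE 0.85, edgeR adjusted p = 0.0458). Tgtp1 overlaps Gm12185, and its near-identical neighbour Tgtp2 (-4.71, edgeR adjusted p = 0.132) may share reads with it.

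Iigp1 stood at 2.50, 2.44 and 1.65 log2 CPM in DMSO, 1.82, 2.00 and 2.20 in A-241, 9.44, 8.49 and 9.33 in IFNγ, and 5.54, 5.89 and 5.77 in A-241 + IFNγ, with an interaction of -3.12 (SE 0.41, edgeR adjusted p = 0.00379). Irgm1, a regulator of the family, responded by 4.51 without and 2.15 with A-241 (interaction -2.36, edgeR adjusted p = 0.029). IFNγ still raised Igtp, Iigp1 and Irgm1 in the presence of A-241 (edgeR adjusted p of 5.5e-06, 2.1e-06 and 0.000505), whereas the response of 1.94 of Tgtp1 was not called. In the absence of IFNγ the effect of A-241 on these 4 genes was between -0.30 and 0.50 and was not called. Of the 12 tested genes on the whole list, 11 lay below 0 and 4 were called lower by edgeR, with a median of -3.50 (-3.38 without the 5 genes that had a group at the floor of 3 counts). DESeq2 called 7 of the list lower. limma-voom called 3, namely Gm12250, Igtp and Iigp1, and thus neither Tgtp1 nor Irgm1.

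The guanylate-binding proteins, large interferon-induced GTPases, had 2 of 5 tested genes called lower, and all 5 lay below 0. Gbp3 (chr3:142560026-142573209, plus strand) was at 2.70, 2.90 and 3.06 log2 CPM in DMSO, 2.79, 2.53 and 2.33 in A-241, 5.67, 6.28 and 5.47 in IFNγ, and 3.00, 2.75 and 3.18 in A-241 + IFNγ. With both treatments, its libraries overlapped those of DMSO. The response to IFNγ was 3.03 without A-241 and 0.44 with it, where it was not called, and the interaction was -2.58 (SE 0.33, 95% interval -3.28 to -1.89, edgeR adjusted p = 0.00284). Gbp7 responded by 3.73 and 1.67 (interaction -2.06, edgeR adjusted p = 0.0458). Gbp2 responded by 6.08 without and 4.55 with A-241, which is an increment of 337 and 81.0 CPM, and its interaction of -1.52 was not called by edgeR (adjusted p = 0.104) but was by DESeq2.

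The promoters of 4 of these genes are shown because the letters of the ISRE, and in Igtp and Tgtp1 also of the GAS element, occur just before their start. They are the 250 bases upstream of a RefSeq start (GRCm38.p6), 5′ to 3′ on the strand of the gene. Gbp3 has another RefSeq start, not shown, whose upstream bases (chr3:142560106-142560355) held neither motif. Capitals mark matches to the ISRE core (TTTC, any 2 bases, TTTC), read on either strand, and to the GAS letters TTCNNNGAA, which read the same on both strands. Motifs may overlap.
Igtp (chr11:58199306-58199555, plus strand): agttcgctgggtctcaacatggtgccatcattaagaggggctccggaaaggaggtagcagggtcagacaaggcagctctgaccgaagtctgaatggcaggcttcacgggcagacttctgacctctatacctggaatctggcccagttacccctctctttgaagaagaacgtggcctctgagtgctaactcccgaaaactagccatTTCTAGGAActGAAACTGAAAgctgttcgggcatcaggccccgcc
Tgtp1 (chr11:48992247-48992496, minus strand): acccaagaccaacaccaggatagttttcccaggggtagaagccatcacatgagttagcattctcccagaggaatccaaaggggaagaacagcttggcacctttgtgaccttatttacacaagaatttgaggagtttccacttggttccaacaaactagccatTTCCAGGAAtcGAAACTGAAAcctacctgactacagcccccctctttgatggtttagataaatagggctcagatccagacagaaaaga
Irgm1 (chr11:48871421-48871670, minus strand): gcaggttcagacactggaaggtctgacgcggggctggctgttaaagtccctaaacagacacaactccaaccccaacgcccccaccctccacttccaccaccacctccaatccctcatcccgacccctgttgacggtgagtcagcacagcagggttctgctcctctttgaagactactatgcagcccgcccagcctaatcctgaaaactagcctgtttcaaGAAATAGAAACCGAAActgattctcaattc
Gbp3 (chr3:142559794-142560043, plus strand): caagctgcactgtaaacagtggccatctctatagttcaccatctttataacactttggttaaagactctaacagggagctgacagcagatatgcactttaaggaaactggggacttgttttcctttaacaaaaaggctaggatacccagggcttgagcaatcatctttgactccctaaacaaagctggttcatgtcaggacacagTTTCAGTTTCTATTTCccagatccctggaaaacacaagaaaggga
In Igtp the GAS letters began 45 bases and the ISRE core 34 bases before the start, and in Tgtp1 88 and 77 bases before it, so that both promoters hold the elements in the same order and spacing. Irgm1 and Gbp3 each held 2 overlapping ISRE matches, 30 and 24 bases before the start in Irgm1 and 45 and 39 in Gbp3, and no GAS letters in these bases.

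At least 1 window of 300 bases, from 250 before to 50 after a RefSeq start, was held for 9 of the 11 genes called lower and for 8283 of the genes tested. A gene with several starts was counted if any of its windows held the motif. The ISRE core was found in 6 of the 9 (66.7%) and in 3.73% of all these promoters, and the GAS letters in 5 of the 9 (55.6%) and in 8.16%. Since IFNγ-induced genes as a whole are known to carry such elements, the same count was made among 152 genes that IFNγ raised in A-485-treated cells, described in detail further on. Of these, the ISRE core was in 45.7% of 46 promoters of genes with an interaction below -1, in 18.2% of 44 with an interaction from -1 to 0, and in 5.26% of 19 with an interaction above 0. The GAS letters were in 28.3%, 11.4% and 31.6% of the same promoters. The size of the IFNγ response was not held equal between these groups, and 90 of the 152 genes were also raised more than 2-fold against DMSO. These shares are descriptions, and a match is not a bound site.

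The list of IFNγ receptor, JAK and STAT genes had 12 members tested, 11 of which lay below 0, with a median of -0.28. Without the libraries rich in Gm42418, 8 of the 12 lay below 0, with a median of -0.25. Stat2 (-1.40), Stat3 (-0.91) and Jak2 (-0.88) were not called by edgeR, although DESeq2 called Stat2 lower, and the receptor chain Ifngr1 (-0.11) had an interval within 2-fold of additivity.

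The antiviral genes held 2 of the genes called. Oasl2, of the oligoadenylate synthetase-like proteins, responded to IFNγ by 2.94 without and 0.77 with A-241 (interaction -2.17, edgeR adjusted p = 0.0178). Samhd1, a dNTP hydrolase that restricts retroviruses, responded by 2.08 and 0.76 (interaction -1.32, edgeR adjusted p = 0.0487). Over the list, 24 of 26 genes lay below 0 with a median of -0.74, and 5 genes (Adar, Oas1g, Oas1a, Trim25 and Ifi35) had intervals within 2-fold of additivity. DESeq2 called 4 genes of the list lower, Samhd1, Oasl2, Xaf1 and Ifit3, and limma-voom only Samhd1 and Oasl2. Trim21, an antibody receptor and ubiquitin ligase that the study names, had an interaction of -1.75 that was not called (edgeR adjusted p = 0.199), but was called without DMSO replicate 3 (-2.21, edgeR adjusted p = 0.0374). Ifi203, of the interferon-inducible HIN-200 family, is outside this list and responded by 3.76 and 1.34 (interaction -2.42, edgeR adjusted p = 0.0178). Its exons overlap those of Mndal.

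Among antigen processing and MHC class I genes, 16 of 17 lay below 0, with a median of -0.67, and 0 were called by edgeR, while 5 had an unadjusted p under 0.05, all with a negative interaction. DESeq2 called 1 of them, Tap1, and limma-voom called 0. Tap1, a subunit of the peptide transporter, was at 31, 64 and 34 counts in DMSO, 39, 66 and 48 in A-241, 588, 402 and 405 in IFNγ, and 140, 210 and 165 in A-241 + IFNγ, with an interaction of -1.57 (95% interval -2.32 to -0.83, edgeR adjusted p = 0.152). Tap1 overlaps Psmb9 (-1.35). The immunoproteasome subunit Psmb10 had an interaction of -0.26 (95% interval -0.95 to 0.43), with IFNγ responses of 1.42 and 1.15. Pdia3 and Calr, general chaperones on the same list whose IFNγ responses were not called, were also within 2-fold of additivity.

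The interferon regulatory factors had 0 of 7 genes called by edgeR, DESeq2 or limma-voom, with 2 at an unadjusted p under 0.05. Irf1 itself was at 111, 147 and 33 counts in DMSO, 115, 91 and 95 in A-241, 5869, 1373 and 4692 in IFNγ, and 1621, 2155 and 1772 in A-241 + IFNγ. IFNγ raised it by 5.05 without A-241 and still by 4.10 with it, and the interaction was -0.95 (95% interval -1.76 to -0.15, edgeR adjusted p = 1). The spread of IFNγ replicate 2 and DMSO replicate 3 enters that interval.

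The feedback inhibitors of the SOCS family lay on both sides of 0, with a median of -0.02 that was 0.03 with total counts, 0.02 with upper-quartile factors and 0.08 without the libraries rich in Gm42418. Of 7 genes, 4 lay below 0, and 0 were called by edgeR, DESeq2 or limma-voom or had an unadjusted p under 0.05. Socs2 was additive, with responses of 1.04 and 1.01 and an interaction of -0.03 (95% interval -0.77 to 0.71). Socs1 was not resolved, and its interval ran from -5.94 to 2.43 around -1.74. It held only 2, 4 and 0 counts in DMSO and 1, 3 and 4 in A-241. IFNγ replicate 2 held 4 counts where the other IFNγ libraries held 511 and 320. Without IFNγ replicate 2 the estimate was -2.25 and still not called (edgeR adjusted p = 0.565).

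Chemokines went different ways, with a median of 0.09 over 12 tested genes (0.50 without the 4 that had a group at the floor), 0 called by edgeR, 1 (Cxcl9) by DESeq2 and by limma-voom, and 1 gene with an unadjusted p under 0.05 in each direction. Cxcl9 had 2, 0 and 0 counts in DMSO and 1, 2 and 1 in A-241, then 1221, 328 and 1014 in IFNγ and 9, 12 and 12 in A-241 + IFNγ. With DMSO and A-241 both at the floor of 3 counts its interaction has no bound, but A-241 lowered it in IFNγ-treated cells by 6.05 on the log2 scale (edgeR adjusted p = 1.68e-07). Csf1, the macrophage growth factor, was additive, with responses of 0.98 and 0.98 and an interaction of 0.01 (95% interval -0.57 to 0.59), while A-241 lowered it by 1.64 on the log2 scale without IFNγ. The checkpoint ligand Cd274 was at the floor too, with 0, 1 and 0 counts in DMSO and 2, 1 and 1 in A-241. In IFNγ it had 175, 63 and 74 counts and in A-241 + IFNγ 10, 14 and 10. A-241 lowered Cd274 in IFNγ-treated cells by 3.01 on the log2 scale (edgeR adjusted p = 1.77e-05). No size of its interaction is given, which limma-voom called lower and edgeR and DESeq2 did not call.

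Mtfr2, a mitochondrial fission regulator (chr10:20347770-20361304, plus strand), was the 1 gene called lower that each treatment alone raised. It stood at 2.06, 1.76 and 1.65 log2 CPM in DMSO, 3.99, 3.58 and 3.63 in A-241, 3.88, 3.02 and 3.84 in IFNγ, and 3.57, 3.58 and 3.78 in A-241 + IFNγ. The 3 treated groups overlapped, and all their libraries lay above DMSO. A-241 raised it by 2.02 (edgeR adjusted p = 0.00015) and IFNγ by 1.92 (edgeR adjusted p = 0.000387), but IFNγ in A-241-treated cells changed it by -0.10, and the interaction was -2.02 (SE 0.36, edgeR adjusted p = 0.0458).

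Ccnd1, which encodes cyclin D1, a driver of entry into the cell cycle (chr7:144929931-144939925, minus strand), was the 1 gene called higher. Its libraries were at 10.18, 10.17 and 10.37 log2 CPM in DMSO, 8.06, 7.95 and 8.02 in A-241, 9.45, 9.77 and 9.52 in IFNγ, and 8.50, 8.49 and 8.43 in A-241 + IFNγ. The 4 groups did not overlap. A-241 lowered it by 2.23 on the log2 scale (edgeR adjusted p = 7.52e-08) and IFNγ by 0.66 (edgeR adjusted p = 0.0141), and cells given both stood above those given A-241 alone, by 0.46, a response to IFNγ that was not called. The interaction was 1.12 (SE 0.19, 95% interval 0.71 to 1.53, edgeR adjusted p = 0.04). Ccnd1 shares exon bases with LTO1.

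**Figure D2:**
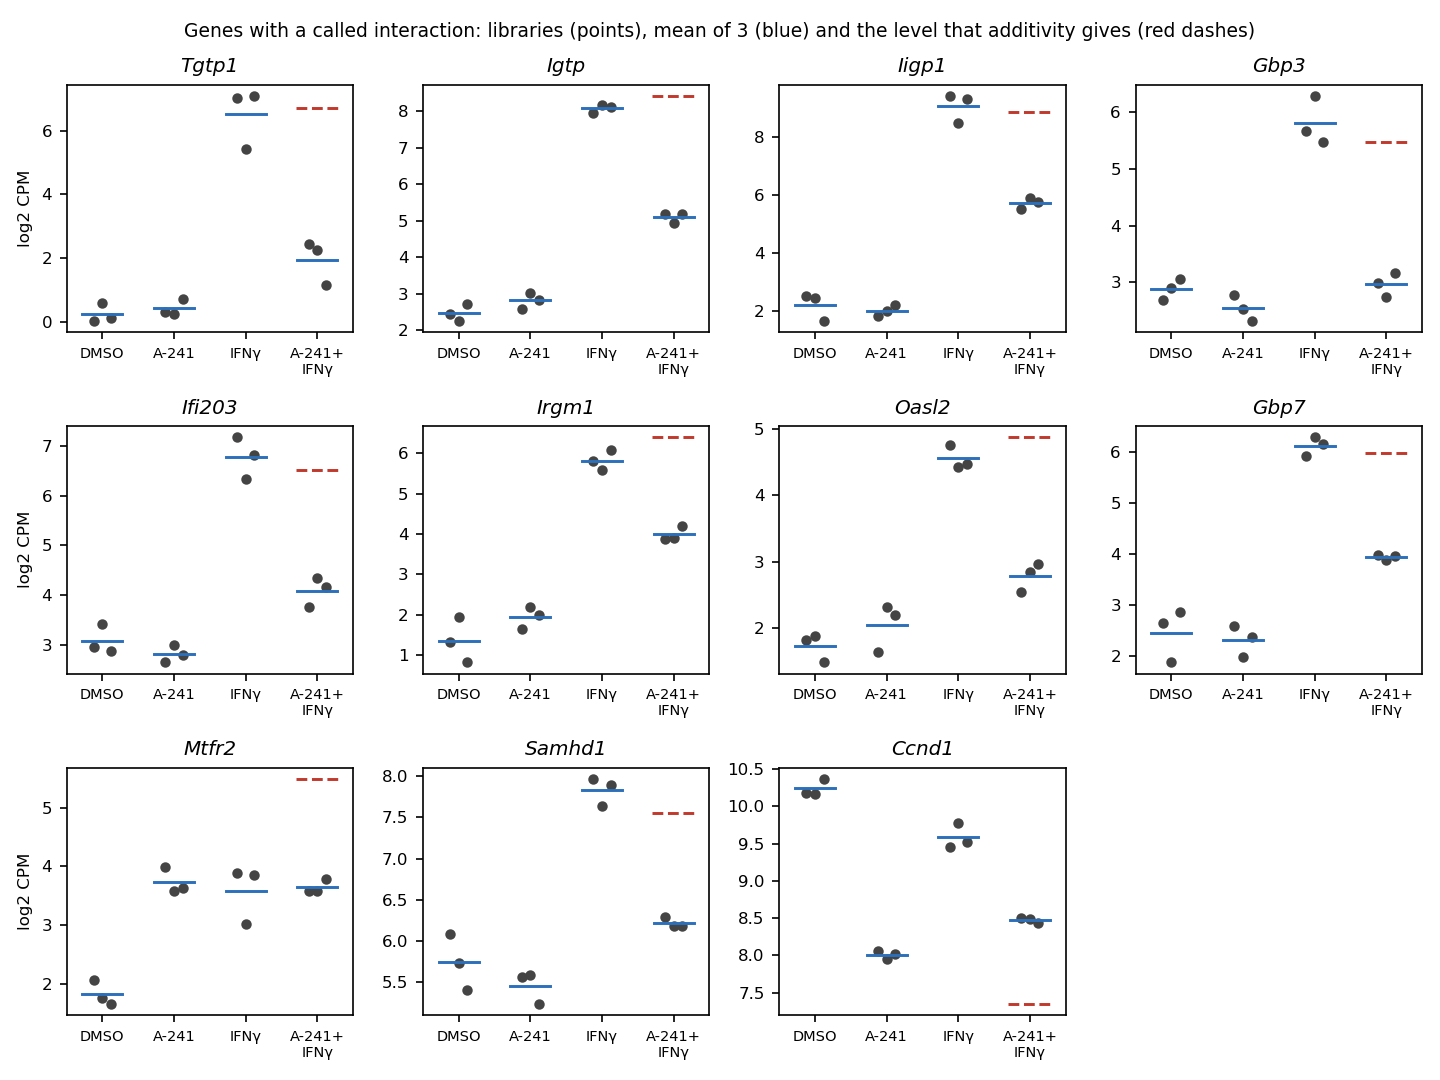
Level (log2 CPM, y axis) of 11 of the genes with a called interaction in each library (points) of the 4 groups (x axis), with the mean of 3 libraries (blue line) and the level that additivity gives for A-241 + IFNγ (red dashes). The measured A-241 + IFNγ levels lie below the dashes in the 10 genes called lower that are shown, as in Igtp (5.11 against 8.43), and above them in Ccnd1.

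The calls differed in how far they rested on single libraries. Igtp, Iigp1 and Gbp3 were called whichever of the 12 libraries was left out (largest edgeR adjusted p of 0.000321, 0.0306 and 0.013). Ifi203 was called in 7 of 12, and lost without DMSO replicate 1, A-241 replicates 2 and 3 or A-241 + IFNγ replicates 1 and 3 (edgeR adjusted p from 0.0652 to 0.084). Oasl2 was called only without DMSO replicates 2 or 3, A-241 replicate 1 or IFNγ replicates 2 or 3, and otherwise had an edgeR adjusted p from 0.0542 to 0.0893. Irgm1 was called only without DMSO replicates 2 or 3, A-241 replicate 1 or IFNγ replicate 2 (otherwise from 0.0558 to 0.145). Samhd1 was called only without DMSO replicate 1 or IFNγ replicate 2 (otherwise 0.0578 to 0.223), and Gbp7 only without DMSO replicate 3 (otherwise 0.0526 to 0.189). Tgtp1, Mtfr2 and Ccnd1 were called only without IFNγ replicate 2, and without any 1 of the other 11 libraries had edgeR adjusted p from 0.0771 to 0.312, 0.0705 to 0.171 and 0.0515 to 0.147. The interaction kept its sign in every one of these fits.

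With both libraries rich in Gm42418 left out, 27 genes were called lower and 11 higher, and all 12 genes called with all libraries were among them. The genes added on the lower side include Tgtp2 (-5.01), Irgm2 (-3.76), Gbp2 (-1.54), Trim21 (-1.97), Xaf1 (-1.94), Parp10 (-1.45), Parp9 (-1.30) and Tap1 (-1.41), and also Cebpb (-1.07), which had an A-241 effect of -1.47 without IFNγ. The 11 on the higher side were Ccnd1 (1.18), Zfp36l1 (1.08), Krt6a (1.08), Faap100 (1.20), Wnt7b (1.20), Sfn (1.37), Tsc22d1 (1.43), Prlr (1.58), Ephb3 (1.7), Lrrc75b (1.95) and Mocs1 (2.50). In that fit both single effects of all 11 were below 0, from -0.28 to -2.14 for IFNγ and from -0.59 to -3.86 for A-241, and the IFNγ response with A-241 was above 0 in all but Ephb3 (-0.44). The single effects share the DMSO libraries with the interaction, so that this pattern is favoured by the choice of genes. With all libraries, edgeR called only Ccnd1 of these 11. DESeq2 called Wnt7b as well, and its calls of those of the 11 that are on none of the gene lists were not examined.

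Genes to which the treatments applied additively were named by the same criterion, the interval within 2-fold, and by the size of 1 single effect, which shares libraries with the interaction. Of the 742 genes that A-241 lowered without IFNγ, 261 met it, and of the 343 it raised, 195. Of all genes tested, 38.1% met it, so that genes lowered by A-241 met it no more often than genes at large. Runx1, a transcription factor of blood and epithelial development, was at 5.53, 5.41 and 5.80 log2 CPM in DMSO, 2.38, 2.58 and 2.60 in A-241, 5.22, 5.70 and 5.02 in IFNγ, and 2.59, 2.16 and 2.47 in A-241 + IFNγ. A-241 thus lowered it by the same amount in either state (3.14 and 3.02 on the log2 scale, interaction 0.13, 95% interval -0.52 to 0.77). Irf2bp2, a co-repressor, Klf3, a repressor of the Kruppel-like family, and Trps1, a GATA-type repressor, fell by 2.47 to 2.68 in the absence of IFNγ, with interactions between 0.14 and 0.39. The exons of these 3 overlap those of other genes.

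Kcnn4, a calcium-activated potassium channel, responded to both treatments and was still additive. It stood at 6.60, 6.34 and 6.15 log2 CPM in DMSO, 3.63, 3.46 and 3.50 in A-241, 5.26, 5.15 and 5.26 in IFNγ, and 2.54, 2.64 and 2.57 in A-241 + IFNγ. The 4 groups did not overlap, A-241 lowered it by 2.89 and 2.72 on the log2 scale, IFNγ by 1.16 and 0.99, and the interaction was 0.17 (95% interval -0.35 to 0.69). Utp14b, which overlaps Acsl3, fell by 0.99 with IFNγ and by 1.13 with A-241, with an interaction of 0.13 (95% interval -0.43 to 0.70).

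Among genes raised by A-241, Hexim1, the inhibitor of the elongation factor P-TEFb, rose by 1.63 without IFNγ and by 1.10 with it. Its interval, from -0.94 to -0.12, lay within 2-fold of additivity but did not include 0 (edgeR adjusted p = 1). E130311K13Rik, Asb1, Zfp335, which overlaps Pcif1, and Mospd1 rose by 1.37 to 1.66 without IFNγ, with interactions between -0.13 and 0.04. Of the 176 genes that IFNγ raised without A-241, 13 were within 2-fold of additivity, which include Rin2, a guanine nucleotide exchange factor (interaction 0.38, 95% interval -0.18 to 0.94), Trib3, a pseudokinase (-0.30, 95% interval -0.93 to 0.33), Psmb10, Socs2 and Csf1. Rin2 was lowered by A-241 by 2.02 and 1.64 on the log2 scale, and IFNγ raised it by 1.27 and 1.65, so that its level fell with A-241 while its log2 response to IFNγ was not smaller.

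**Figure D3:**
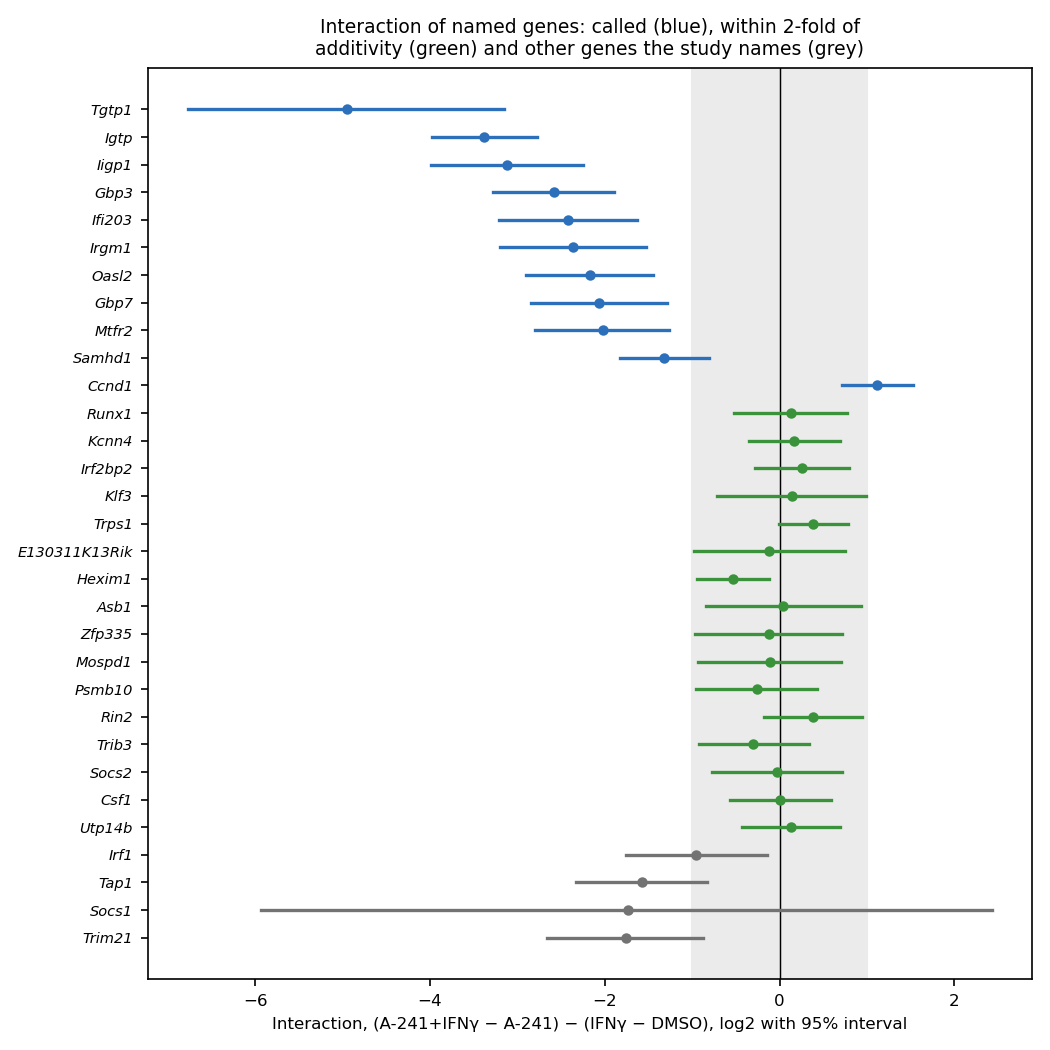
Interaction (log2, x axis) with its 95% interval for each named gene (y axis), for genes called (blue), within 2-fold of additivity (green) and other genes that the study names (grey), and the range from -1 to 1 shaded. The intervals of the 10 genes called lower that are shown all end below 0, and that of Socs1, from -5.94 to 2.43, is the widest.

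Additivity depends on the scale. On the scale of CPM, IFNγ added 266 CPM of Igtp without A-241 and 27.6 with it, and 562 and 49.4 CPM of Iigp1, so that for these genes the increment was smaller on both scales. For additive genes that A-241 lowered, the log2 response was kept and the increment was not. Rin2 gained 50.01 CPM without and 18.7 CPM with A-241, and Csf1 12.6 and 4.11 CPM. All 12 interactions kept their sign when taken as the difference of CPM increments.

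Genes chosen for their response to IFNγ against DMSO are pushed towards negative interactions by chance alone, because the same DMSO and IFNγ libraries enter both. IFNγ-raised genes were therefore also taken from the 6 A-485 libraries, which are not in the contrast. This choice keeps genes that IFNγ still raised in the presence of another P300/CBP inhibitor, and it leaves out Gbp3 and Mtfr2. IFNγ raised 152 tested genes there by more than 2-fold (edgeR adjusted p under 0.05). Of these, 122 (80.3%) lay below 0, 9 were called lower by edgeR (24 by DESeq2) and 0 higher, with 65 lower and 2 higher at an unadjusted p under 0.05, beside 52.7% below 0, 0.0919% called lower and 0.00836% called higher of all genes tested. Their median interaction was -0.72, with quartiles of -1.48 and -0.14, as the median response to IFNγ was 1.65 without and 1.00 with A-241. It was -0.66 without the 20 genes that had a group at the floor, and -0.71 without the libraries rich in Gm42418. Chosen against DMSO, the 158 genes had a median of -1.29, and the 90 genes chosen both ways one of -1.27. The lists thus differ in their members, and the gap between -0.72 and -1.29 does not measure the push of the choice. The A-485-chosen list contained 11 genes within 2-fold of additivity, namely Deptor, Trib3, Pik3r1, Psmb10, Urah, Bcl2l11, Shroom3, Atp7a, Socs2, Pcdh17 and Rin2. Among its 30 genes above 0, of which edgeR called 0, Arid5a (0.72), Pde4b (1.05) and Spsb1 (1.42) had larger fitted IFNγ responses with A-241 than without. The 49 genes that IFNγ lowered in A-485-treated cells had a median interaction of 0.08, and 0 were called by edgeR, with 4 in each direction at an unadjusted p under 0.05.

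All genes were also placed by the average of each effect over both levels of the other treatment. Were the spread equal in the 4 groups, noise in these averages would not push the interaction either way. The DMSO and IFNγ libraries were more variable (root mean square deviation within a group from 0.566 to 1.13 on the log2 scale) than those with A-241 (from 0.34 to 0.44), which leaves a push towards negative values for genes placed as raised by IFNγ. Where only the average A-241 effect was called and below 0, the median interaction over 1326 genes was 0.14, with 477 below 0 and Ccnd1 called higher. A small positive median was found for these genes under each scaling tried, from 0.14 to 0.18, and of 0.19 without the libraries rich in Gm42418. Where only the average A-241 effect was called and above 0, the median over 985 genes was -0.05. Where only the average IFNγ effect was called and above 0, it was -0.88 over 93 genes, and where A-241 lowered and IFNγ raised the gene it was -0.97 over 87 genes, which held 10 of the 11 called lower. The 7 genes that both raised on average had a median of -0.74. They were Mtfr2, Gm26448, Csrnp1 (-1.14), Ifih1 (-0.74), Snora26, Ncoa7 and Tor3a. The 13 genes that both lowered had a median of 0.13. Over the 9440 genes with neither average effect, the median was -0.03, and it turned positive with total counts (0.01) and upper-quartile factors (0.00).

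**Figure D4:**
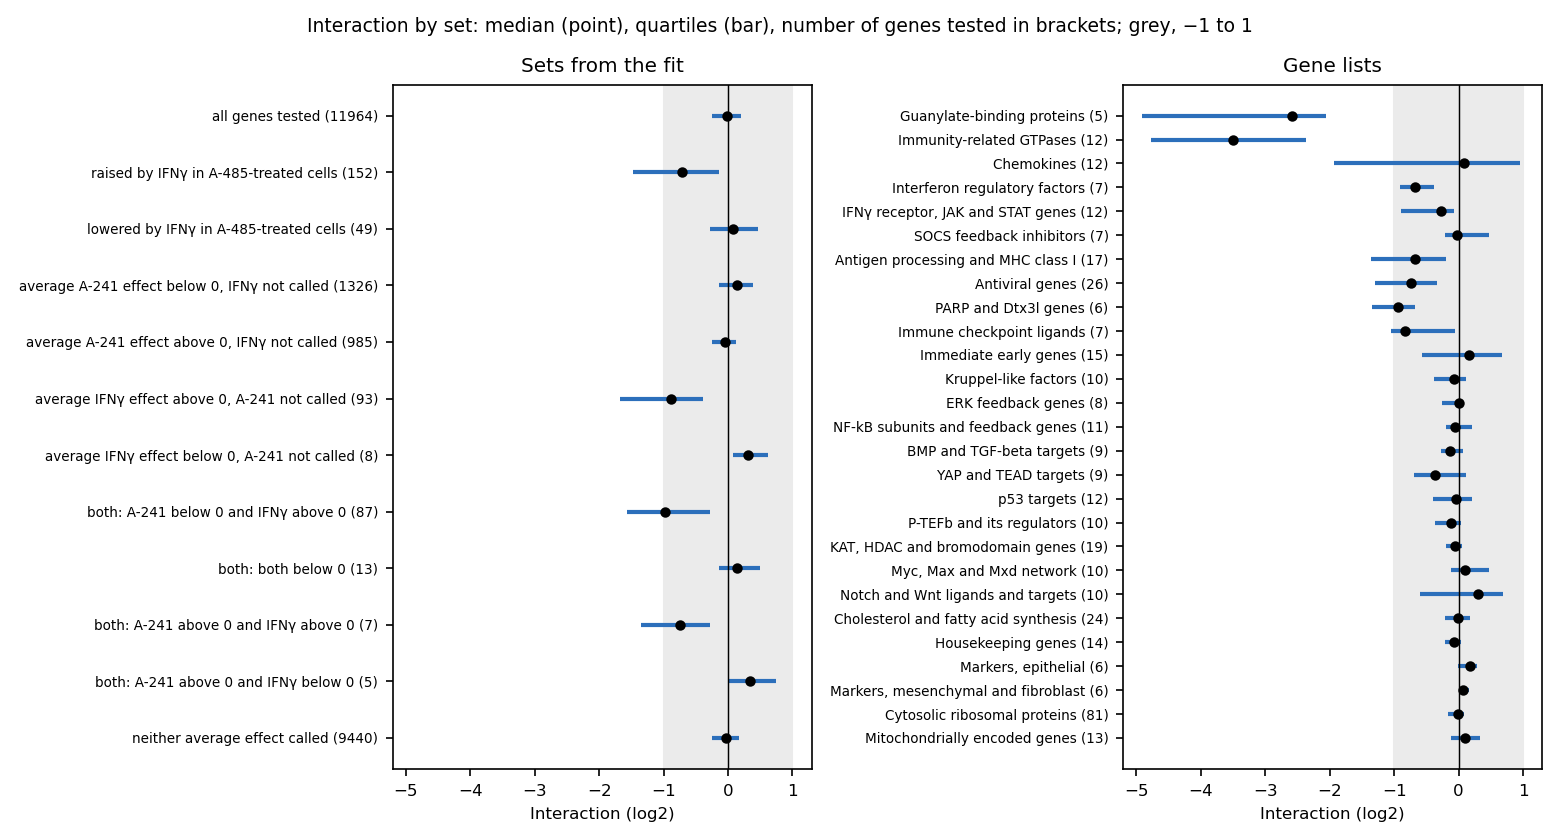
Median (point) and quartiles (bar) of the interaction (log2, x axis) for sets taken from the fit, left, and for gene lists, right, with the number of genes tested in brackets. The guanylate-binding proteins and immunity-related GTPases lie lowest, at medians of -2.58 and -3.50, and lists such as the ribosomal proteins, at -0.01, lie near 0.

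Gene lists outside the interferon response lay close to 0, including those that A-241 lowered. Over 24 genes of cholesterol and fatty acid synthesis, the median A-241 effect was -0.59 without and -0.70 with IFNγ, the median interaction was -0.00, and 14 genes, such as Hmgcs1 (-0.13), Sqle (0.15) and Scd2 (0.18), were within 2-fold of additivity. The 10 Kruppel-like factors had A-241 effects of -1.13 and -1.42 and a median interaction of -0.07, with Klf3, Klf5, Klf6, Klf7 and Klf13 within 2-fold. Of 81 ribosomal protein genes, 55 were within 2-fold (median -0.01), and of 19 acetyltransferase, deacetylase and bromodomain genes, 14 were, with Ep300 at -0.05 and Crebbp at 0.00. These counts stand beside 38.1% of all genes tested, and 61.9% of those with a mean of 300 to 1000 counts. Medians were -0.06 for the NF-kB, 0.00 for the ERK feedback, -0.13 for the BMP and TGF-beta, -0.05 for the p53, -0.12 for the P-TEFb, 0.10 for the Myc network, -0.07 for the housekeeping and 0.09 for the mitochondrial list. Several of these medians were not stable in sign, and total counts or the removal of the libraries rich in Gm42418 turned those of the cholesterol list (0.03 with total counts), the ribosomal proteins (0.02 with total counts), and the NF-kB (0.03), housekeeping (0.06), acetyltransferase (0.04), ERK feedback (-0.02) and mitochondrial (-0.00) lists without these libraries. Of the lists in this paragraph, 0 genes were called by edgeR, DESeq2 or limma-voom. At an unadjusted p under 0.05, there were 2 genes of the P-TEFb list and 1 each of the BMP and TGF-beta and the acetyltransferase lists below 0, and 1 each of the cholesterol and the mitochondrial lists above 0.

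A few lists outside the interferon response had wider values. Over 9 YAP and TEAD targets the median was -0.37, and over 10 Notch and Wnt genes 0.30. Wnt7b was at 1.12 (edgeR adjusted p = 0.148), and was called higher by DESeq2 but not by limma-voom. The 15 immediate early genes had a median of 0.16, with 2 genes at an unadjusted p under 0.05 above 0 and 3 below. Fos was at 11, 24 and 14 counts in DMSO, 22, 15 and 28 in A-241, 8, 7 and 8 in IFNγ, and 26, 47 and 31 in A-241 + IFNγ, with an interaction of 1.89 (edgeR adjusted p = 0.325). Jun was at -0.81 (edgeR adjusted p = 0.148), and was called lower by DESeq2 but not by limma-voom. Myc had 42, 66 and 63 counts in DMSO and 93, 88 and 57 in IFNγ, but 2, 4 and 0 in A-241 and 6, 7 and 6 in A-241 + IFNγ, and the interval of its interaction ran from -0.76 to 3.45. The PARP and Dtx3l genes, which IFNγ induces, had 6 of 6 below 0 with a median of -0.94, and 0 called by edgeR, with 3 at an unadjusted p under 0.05 and 1 (Parp10) called by DESeq2. The checkpoint ligands had a median of -0.83, which was -0.31 without the libraries rich in Gm42418, with 0 called by edgeR or DESeq2 and 1 (Cd274) by limma-voom.

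For A-485 at 1000 nM, the interaction with IFNγ against the same DMSO and IFNγ libraries was called lower for 2 genes (0.0167%) and higher for 0 by edgeR. Gbp3 was among the 2, with -2.19, and had -2.58 with A-241. Ccnd1 had 0.60 with A-485 and 1.12 with A-241, and Mtfr2 -1.04 and -2.02. The doses differ and both interactions share 6 libraries, so that the values are set side by side and not compared.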

How the data were processed

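Transcripts of AT3 cells were measured by 3′ mRNA sequencing in 18 libraries, 3 for each of 6 groups. The authors trimmed reads with cutadapt 1.7, aligned them to GRCm38 with HISAT2 2.1.0 and assigned them to exons with featureCounts, as the methods and the submitters' processing notes state. Reads over several genes were counted for each. The values in the deposited table are unnormalized read counts for each gene. The annotation release is not given in the sources used here. Identifiers were joined to GENCODE vM21 (97.5% matched). The 1 count table has 0 columns of other samples.

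The software was edgeR 4.0.16, DESeq2 1.42.0, limma 3.58.1 and sva 3.50.0 under R 4.3.3, with tables and figures from Python 3.11.15. Genes were filtered with filterByExpr by group, scaling used TMM, and glmQLFit estimated the mean of every group from the 18 libraries together, which gives a spread shared by all groups. Contrasts were tested with glmQLFTest, two-sided, with p adjusted by the Benjamini-Hochberg method over 11964 genes. Intervals (95%) are the estimate and its Wald standard error from the moderated dispersion. For log2 CPM levels, the prior count was 2. The libraries carry no spike-in, and a shift by A-241 that is equal with and without IFNγ cancels in the interaction. A group was at the floor when all its libraries had 3 counts or fewer, which is 0.382 to 0.878 CPM over the libraries.

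The result for 1 gene that passed the test is not reported here. Named genes were all those called with at least 50 counts on average in the highest group (up to 12 in each direction), the 5 largest rises and falls of each single effect among genes within 2-fold of additivity, and genes named by the study. Other genes come from lists and from descriptions made after their values were seen, which are the genes added without the libraries rich in Gm42418, those of the A-485-chosen list and those of the classes. The members, lists and tests were chosen with earlier results of these data known, and the classes by average effects and the removal of genes at the floor were added after these data were seen. The method was tested on simulated counts, with 40 genes for each size of interaction. It called 75% of them at -3, 55% at -2 and 70% at 2. At -1 and 1 it called only 5% and 10%, so that most interactions of this size were missed. Of 11612 unchanged genes in the same simulation, 9 were called. All pairs of libraries within a group differed by more than sampling noise. Promoters are RefSeq windows. Alternatives were other tests, scalings, filters, thresholds and choices of libraries.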

Additional observations from a re-analysis of the deposited data

Results flagged for a closer look

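The response to IFNγ differed between cells with and without A-241, by the test of the difference itself, in 12 genes, 11 of which are given here. The interaction (log2, edgeR's quasi-likelihood test, adjusted p under 0.05) was -4.95 for Tgtp1, -3.38 for Igtp, -3.12 for Iigp1, -2.58 for Gbp3, -2.42 for Ifi203, -2.36 for Irgm1, -2.17 for Oasl2, -2.06 for Gbp7, -2.02 for Mtfr2 and -1.32 for Samhd1, and 1.12 for Ccnd1. Mtfr2 and Ccnd1 differ from the others in that A-241 alone changed them, by 2.02 and -2.23. DMSO replicate 3 and IFNγ replicate 2, which held the largest shares of Gm42418 counts, enter all these values, and without both the values lay between -5.20 and 1.18 with the calls kept. What sets these libraries apart was not tested.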

How the results depend on the processing

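The main test called 11 genes lower and 1 higher, with 4560 within 2-fold of additivity. Lower and higher calls were 34 and 7 with DESeq2 (232 adjusted p not given), 6 and 1 with total counts, 14 and 0 without a filter, 5 and 1 with at least 10 counts in every library, 4 and 0 in a fit of only the 12 libraries of the contrast, 27 and 11 without DMSO replicate 3 and IFNγ replicate 2, 88 and 46 with 2 surrogate variables, 43 and 21 with voom quality weights, and 4 and 0 at an adjusted p under 0.01. limma-voom, DESeq2 size factors and upper-quartile factors each gave 11 and 1, and 9 of the 12 genes were shared with limma-voom. Tgtp1 and Irgm1 were not called by limma-voom. With the replicate number as a block the calls were 4 and 0. The labels do not tie the numbers to batches, and libraries with the same number did not deviate together throughout (7 of 18 pairs had a correlation over 0.1, among them all 3 of DMSO with A-241 + IFNγ, and the range was -0.80 to 0.48). With 1 library left out in turn, lower calls ranged from 4 to 14 and higher calls from 0 to 2, and genes within 2-fold from 3601 to 4491. Genes within 2-fold numbered 8053 with 2 surrogate variables, and 751 under a narrower limit of 1.5-fold. The median of IFNγ-raised genes was -1.29 when these were chosen against DMSO. Igtp, Iigp1 and Gbp3 were called under all alternatives that tested them, and no interaction of a called gene changed its sign. Those of additive genes close to 0 did, as Socs2 (0.03 with total counts) and Csf1 (-0.02 with limma-voom). Called genes, other genes that the study names and additive genes together gave 799 combinations of a gene and an alternative. In 102 a called gene lost its call, and in 10 a gene gained one. In 92 the interval of an additive gene passed beyond 2-fold. Only called genes could lose a call and only additive genes could pass beyond 2-fold, so that these counts are not shares of 799. The causes of these changes were not tested. A stricter threshold cannot add calls by construction. Leaving out libraries did not always lower the number of calls, with 27 lower and 11 higher without DMSO replicate 3 and IFNγ replicate 2. Depth and the spread of 3 libraries limit the calls, and genes under 10 counts could not be shown to be additive.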
